A study of Mus musculus with 2 samples.

Results

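The NDC80 complex and the spindle checkpoint genes were followed along the cell-cycle position of single cells from mouse neurospheres, spheres of neural stem and progenitor cells that grow in suspension. Members were chosen by name: *Ndc80*, *Nuf2*, *Spc24* and *Spc25*, which encode the 4 subunits of the complex, and *Bub1*, *Bub1b*, *Bub3*, *Mad2l1* and *Ttk*. Of these 9 genes, 8 have a row among the 10666 genes of the expression table, and *Spc24* was not analysed here. The data are single-cell RNA-seq of 2 replicate cultures of 1 condition. Both come from wild-type C57BL/6 embryos of embryonic day 14.5, from the dorsal telencephalon, and were kept with EGF and bFGF, each at 10 ng/ml, and passaged as spheres before library preparation. The cells had therefore grown in culture under growth factors and were not taken directly from the embryo, and the labels do not say whether the cultures came from separate embryos.

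The NDC80 complex is the part of the outer kinetochore that grips the ends of spindle microtubules. *Ndc80* and *Nuf2* encode the subunits whose globular heads contact the microtubule, and *Spc24* and *Spc25* encode those that anchor the complex to the inner kinetochore. The spindle checkpoint delays anaphase until every kinetochore is attached. *Ttk* encodes the kinase MPS1 that starts the signal at unattached kinetochores, *Bub1* a kinase that serves as a platform there, and *Bub3* the adaptor through which BUB1 and BUBR1 are recruited. *Bub1b* encodes BUBR1 and *Mad2l1* encodes MAD2, which together with BUB3 and CDC20 form the complex that inhibits the anaphase-promoting complex.

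Culture 1 holds 5748 cells with a median of 19477 UMIs (unique molecular identifiers, here estimated molecules) per cell, and culture 2 holds 7057 cells with a median of 14637. The cell barcodes of 48 cells occur in both libraries. Of the 8 progenitor markers 6 have a row, with *Vim* detected in 99.2% and 99.9% of cells and *Nes* in 93.3% and 89.8%, but *Hes1* in 44.5% and 50.5% and *Pax6* in 21.1% and 23.1%. *Sox2* and *Hes5* have no row among the genes used here. Of the neuroblast and neuron markers 3 of 8 have a row and were detected in 0.709% to 7.34% of cells. Of the 5 oligodendrocyte progenitor markers 4 have a row, with *Olig2* detected in 97.3% and 91.9% of cells and *Sox10* in 4.26% and 0.751%. None of the markers listed for microglia, endothelial cells or fibroblasts has a row.

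Expression values are the authors' depth-normalized signal, read as log2(value + 1), and a gene is called detected in a cell where its value is above 0. Cell-cycle position is the authors' angle in radians, on a circle from 0 to 2π, with S phase before π, G2 near π, mitosis near 3π/2 and G1 around 0. The authors learned this angle from cell-cycle genes, so the members are not independent of it. The fits, the arc differences, the maxima and the levels after the maximum were therefore also read on a rebuilt angle. It was built here from 577 cell-cycle genes that exclude the members and the other kinetochore and checkpoint genes listed for comparison. Kinetochore genes outside that list were not removed from this angle. Its circular correlation with the authors' angle was 0.932 in culture 1 and 0.931 in culture 2. With 1 condition and 2 cultures no test between groups was possible, and the spread given is that between the cultures.

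The promoters of 5 members are shown, those of the 3 NDC80 subunits measured and of the checkpoint genes *Bub1b* and *Ttk*, to set their motifs beside each other. The stretches do not overlap these genes as annotated in GENCODE vM21. Each line holds the 150 bases upstream of the RefSeq start site (GRCm38.p6), 5′ to 3′ on the strand of the gene, with the CCAAT box (CCAAT, or ATTGG where it lies on the other strand) and the E2F motif GGCGGGA in capitals. The stretches are chr17:71526858-71527007 on the minus strand for *Ndc80*, chr1:169531465-169531614 on the minus strand for *Nuf2*, chr2:69206214-69206363 on the minus strand for *Spc25*, chr2:118598061-118598210 on the plus strand for *Bub1b* and chr9:83834539-83834688 on the plus strand for *Ttk*.
Ndc80: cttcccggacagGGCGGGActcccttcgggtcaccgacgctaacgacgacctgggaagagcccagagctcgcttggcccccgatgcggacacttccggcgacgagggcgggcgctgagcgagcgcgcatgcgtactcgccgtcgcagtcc
Nuf2: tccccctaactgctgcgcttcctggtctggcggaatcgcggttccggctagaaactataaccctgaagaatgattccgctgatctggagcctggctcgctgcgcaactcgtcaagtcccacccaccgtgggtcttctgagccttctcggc
Spc25: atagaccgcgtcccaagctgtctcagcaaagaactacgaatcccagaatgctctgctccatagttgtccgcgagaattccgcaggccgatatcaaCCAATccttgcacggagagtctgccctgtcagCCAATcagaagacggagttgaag
Bub1b: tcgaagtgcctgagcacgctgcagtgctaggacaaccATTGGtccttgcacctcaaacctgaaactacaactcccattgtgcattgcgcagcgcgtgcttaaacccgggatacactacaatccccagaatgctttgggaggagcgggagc
Ttk: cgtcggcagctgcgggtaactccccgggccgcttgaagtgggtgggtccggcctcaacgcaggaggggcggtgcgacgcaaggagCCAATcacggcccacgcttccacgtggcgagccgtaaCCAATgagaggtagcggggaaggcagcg
Both strands of windows from 250 bases upstream to 50 bases downstream of the start site were searched for these motifs and for the cell cycle homology region TTTGAA, an element known from promoters of G2/M genes. The genes themselves lie (GRCm38) at chr17:71496100-71526857 for *Ndc80*, chr1:169497934-169531464 for *Nuf2*, chr2:69193895-69206194 for *Spc25*, chr2:127801122-127831865 for *Bub1*, chr2:118598211-118641591 for *Bub1b*, chr7:131560222-131571895 for *Bub3*, chr6:66535390-66547220 for *Mad2l1* and chr9:83834689-83872389 for *Ttk*. The 8 members have 9 promoter windows, of which both *Bub3* windows overlap and hold the same copies. TTTGAA or its complement occurs in 6 of the 9 windows, against 17.9% of all 32851 windows and 11.8% of the windows of genes in the expression table. In *Ndc80*, *Spc25*, *Bub1b* and *Ttk* it lies just downstream of the start site, outside the stretches shown. CCAAT occurs in 6 of the 9, against 37.4% and 37.7%, and GGCGGGA in 2 of the 9, those of *Ndc80* and *Bub1*, against 11.3% and 21.4%. *Spc25* and *Ttk* each hold 2 CCAAT boxes, starting 55 and 23 bases upstream of the start site in *Spc25* and 65 and 28 bases upstream in *Ttk*. The *Nuf2* and *Mad2l1* windows hold none of the 3 motifs. These are matches of letters within short windows and were not tested as binding sites.

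All 8 members varied along the cell-cycle position by the rule used here, a fit of 2 harmonics of the angle whose R² reaches 0.05 in each culture. The same rule was met by 4.01% of the 10666 genes in the table. Under the alternatives all 8 met it as well, beside 8.34% of all genes with a minimum of 0.02, 2.25% with a minimum of 0.1, 3.81% with 1 harmonic, 3.95% with a pseudocount of 0.1, 3.86% with depth in the fit, 4.07% in cells of 12000 to 20000 UMIs, 4.04% on the rebuilt angle, and 4.26% and 5.6% in culture 2 and culture 1 alone. Among the genes detected in at least 10% of cells of each culture, 7 members were left, without *Ttk*, and all 7 met the rule beside 5.39% of those genes. *Spc25* had the largest R² of the members, 0.542 in culture 1 and 0.538 in culture 2, which placed it 20th among all genes by the lower value. *Nuf2* followed with 0.444 and 0.329, and *Ndc80* had 0.318 and 0.203. Among the checkpoint genes the R² was 0.362 and 0.279 for *Mad2l1*, 0.356 and 0.247 for *Bub1*, 0.311 and 0.285 for *Bub1b*, 0.235 and 0.157 for *Bub3*, and 0.177 and 0.167 for *Ttk*. On the rebuilt angle the lower R² of the cultures ranged from 0.138 for *Bub3* to 0.503 for *Spc25*.

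**Figure D1:**
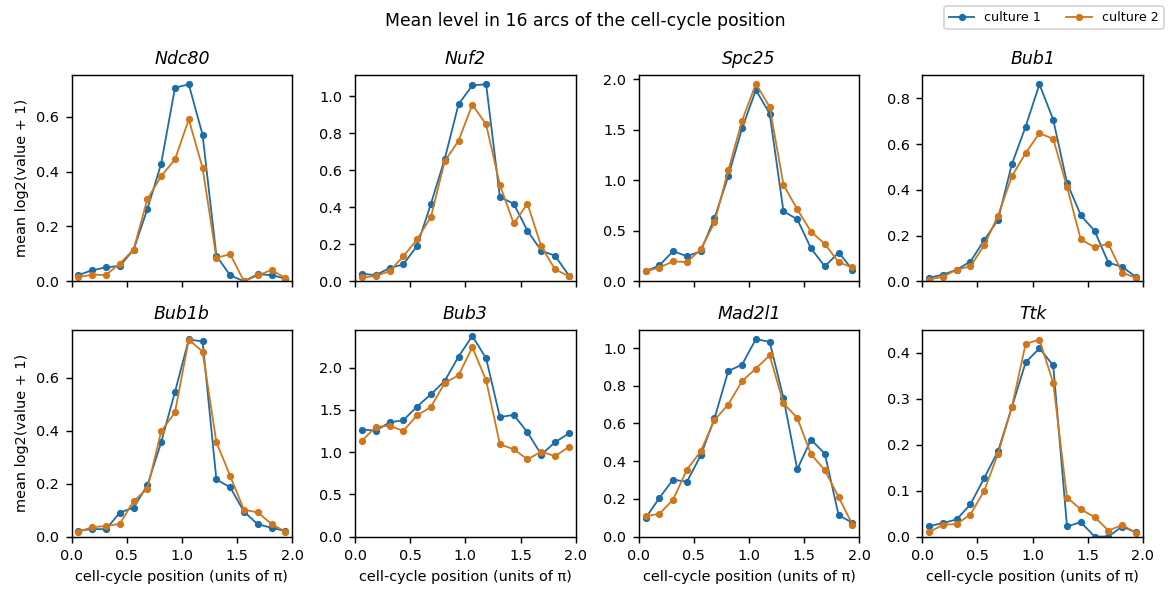
Mean log2(value + 1) of each member (vertical axis, each gene on its own scale from 0) in 16 arcs of the cell-cycle position (horizontal axis, units of π), with 1 point per arc and 1 line per culture. Every member reaches its highest arc between π and 5π/4 in both cultures, and *Bub3* is the only member whose line stays well above 0 around the whole circle.

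The genes were compared between a G2/M arc, from 3π/4 to 5π/4, and a G1 arc, from 7π/4 through 0 to π/4. The paper centers S-stage cells at about 3π/4. The arc called G2/M here therefore also holds S-phase cells, and it leaves out cells of mitosis after 5π/4. The G2/M arc holds 2056 cells (35.8%) of culture 1 and 1666 cells (23.6%) of culture 2, and the G1 arc holds 2459 (42.8%) and 3991 (56.6%). Median depth was 22278 and 17440 UMIs in the G2/M arc against 18308 and 14105 in the G1 arc. The differences below were therefore repeated over cells with 12000 to 20000 UMIs. In that window median depth was 16245 and 16534 UMIs in the G2/M arc against 16792 and 14697.5 in the G1 arc. It thus narrowed the gap in depth in culture 2 but did not close it.

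The 3 NDC80 subunits measured were higher in the G2/M arc in both cultures. *Spc25* averaged 1.56 in the G2/M arc and 0.12 in the G1 arc of culture 1 on the log2(value + 1) scale, and 1.68 and 0.13 in culture 2. *Nuf2* averaged 0.94 and 0.04 in culture 1 and 0.84 and 0.03 in culture 2. *Ndc80* averaged 0.62 and 0.01 in culture 1 and 0.47 and 0.02 in culture 2. These levels correspond to differences of 1.49 ± 0.07 for *Spc25*, 0.86 ± 0.07 for *Nuf2* and 0.53 ± 0.10 for *Ndc80* (mean ± SD, n = 2 cultures), each larger than the spread between the cultures. As a ratio of mean values, the G2/M arc stood 19.9-fold and 18.95-fold above the G1 arc for *Spc25*, 30.5-fold and 32.1-fold for *Nuf2*, and 45.9-fold and 34.2-fold for *Ndc80*, in cultures 1 and 2. The base of such ratios is close to 0. In the G1 arc *Ndc80* had mean values of 0.0155 and 0.0174, from 40 of 2459 and 49 of 3991 cells, and *Ttk* was detected in 35 and 37 cells. Ratios on so small a base, here and below, are rough.

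*Bub3*, the checkpoint adaptor, differed from the other members in the size of its ratio. Its mean value in the G2/M arc was 2.41 times that in the G1 arc in culture 1 and 2.43 times in culture 2, where the other 7 members ranged from 11.7-fold to 45.9-fold. Its levels on the log2 scale were 2.15 in the G2/M arc and 1.23 in the G1 arc of culture 1, and 1.99 and 1.08 in culture 2. That is a difference of 0.91 ± 0.01 (SD, n = 2 cultures), which lies within the range of the other members. A log2 difference with a pseudocount of 1 understates the change of genes with low values. With a pseudocount of 0.1 *Bub3* lay near the lower end of that range, at 1.64, above only *Ttk* at 1.17. *Ndc80* stood next at 1.66 and *Spc25* highest at 3.63. With a pseudocount of 1 *Bub3* stood below only *Spc25*, so its place among the members depended on the pseudocount. *Bub3* was detected in 81.1% of the G1 arc cells of culture 1 (95% exact binomial interval 79.5% to 82.6%) and in 65.5% of those of culture 2 (64.0% to 66.9%). In the annotation *Bub3* lies inside the span of *Fgfr2* on the opposite strand, and any bearing of this on its values was not tested.

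The checkpoint kinases and *Mad2l1* were near 0 in the G1 arc. *Bub1* averaged 0.71 in the G2/M arc of culture 1 and 0.59 in that of culture 2, against 0.02 in the G1 arc of each. *Bub1b* averaged 0.60 and 0.63 in the G2/M arcs and 0.02 in both G1 arcs. *Ttk* averaged 0.37 in the G2/M arc of either culture and 0.01 in the G1 arcs. *Mad2l1* averaged 0.97 and 0.87 in the G2/M arcs and 0.09 and 0.08 in the G1 arcs, and its ratio of 13.1 and 11.7 was the smallest after that of *Bub3*. The ratios of *Bub1* were 40.6 and 42.7, those of *Bub1b* 30.3 and 31.8, and those of *Ttk* 26.8 and 37.3.

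Over the 8 members the median difference between the arcs was 0.73 (0.79 in culture 1 and 0.70 in culture 2), where the median over all genes of the table was 0.00099. Among cells of 12000 to 20000 UMIs the median over the members was 0.75, and on the angle rebuilt without the members it was 0.73. Over all cells of a library, mean values were 1.22-fold (*Spc25*) to 1.65-fold (*Ndc80*) higher in culture 1 than in culture 2. Within the G2/M arc the same ratio ran from 0.892 for both *Spc25* and *Ttk* to 1.19 for *Ndc80*. The larger values of culture 1 over all cells thus stood beside its larger share of cells in the G2/M arc. The ratio of the cultures was computed after the profiles had been seen.

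**Figure D2:**
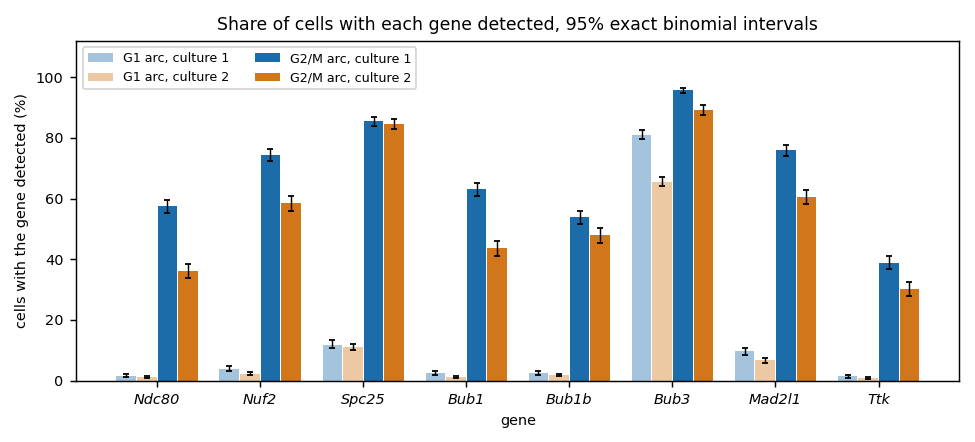
Share of cells in which each member was detected (vertical axis, percent) in the G1 arc (pale bars) and the G2/M arc (full bars) of culture 1 (blue) and culture 2 (orange), with exact 95% binomial intervals (counting error only). For 7 members the G1 arc bars lie at or below 11.9%, while *Bub3* stands above 65% in both arcs of both cultures.

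Detection followed the same pattern. *Spc25* was detected in 85.4% of the G2/M arc cells of culture 1 (83.8% to 86.9%) and 84.6% of those of culture 2 (82.8% to 86.3%), against 11.9% and 11.2% in the G1 arcs. *Ndc80* was detected in 57.4% (55.2% to 59.5%) and 36.1% (33.8% to 38.4%) of G2/M arc cells and in 1.63% and 1.23% of G1 arc cells. For *Ttk* the shares were 38.8% (36.7% to 40.9%) and 30.1% (27.9% to 32.4%), against 1.42% and 0.927%. The G1 arc shares are the background against which detection is read, since free RNA in droplets can give a molecule to a cell that does not express the gene, and the part of free RNA in them was not tested.

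The shares of culture 2 were lower than those of culture 1 in the G2/M arc for all 8 members, beside its lower depth, although the intervals of *Spc25* overlap. In cells of 12000 to 20000 UMIs the median depths of the G2/M arcs were 16245 and 16534 UMIs. There *Spc25* was detected in 80.4% and 85.3% of cells and *Bub1b* in 43.8% and 45.7%, so that for these genes culture 2 was not the lower one. All other members were still detected in a larger share of cells in culture 1. *Ndc80* was detected in 50.4% against 39.0%, *Bub1* in 56.5% against 41.1%, *Nuf2* in 66.4% against 56.7% and *Mad2l1* in 68.2% against 58.1%. The gap was smaller for *Ttk*, 31.8% against 28.9%, and *Bub3*, 92.2% against 91.2%.

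Detection of most members rested on few molecules. Values were multiplied by each cell's depth over the mean depth of all cells, which approximates UMIs. They were under 1.5 in 74.3% and 80.6% of the cells with *Ttk*, and in 59.1% and 75.03% of the cells with *Ndc80*. Their medians in these cells were 0.923 and 1.196 for *Ttk* and 0.934 and 1.239 for *Ndc80*. The scale is therefore not exact, and the shares are not compared between cultures. The shares were lowest for *Spc25*, 37.6% and 43.9%, and *Bub3*, 22.8% and 41.9%. The absence of a transcript in a single G2/M cell can therefore not be read as absence of expression.

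The 7 members other than *Bub3* were also counted per cell. The mean count is the sum of the detection shares of the single genes. It therefore does not show whether the genes were detected in the same cells. Between π and 5π/4 a cell had a mean of 4.72 of the 7 detected in culture 1 and 3.81 in culture 2, and 78.7% and 58.6% of cells had 4 or more. Between 7π/4 and 2π the means were 0.306 and 0.247, and 73.1% and 78.0% of cells had none. In that arc 4 or more were found in 0 of 1789 cells of culture 1, which allows a share of up to 0.168%, and in 1 of 3149 cells of culture 2. In the S-phase arc from π/2 to 3π/4 the means were 2.08 and 1.61.

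**Figure D3:**
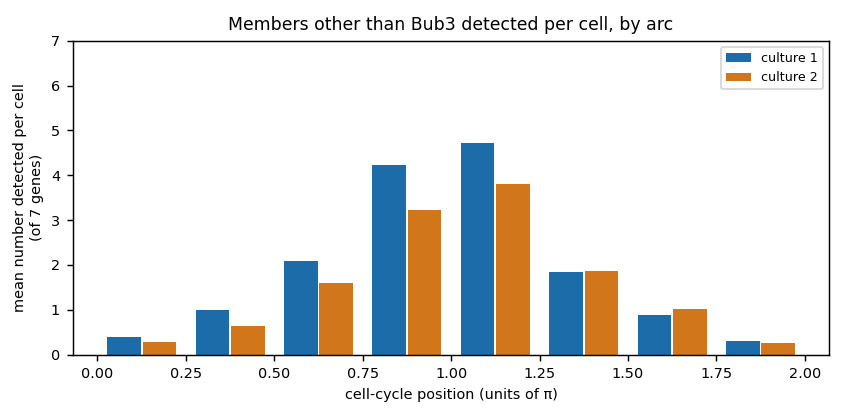
Mean number of the 7 members other than *Bub3* detected per cell (vertical axis) in 8 arcs of the cell-cycle position (horizontal axis, units of π), with 1 bar per culture. The count climbs from 0.4 and 0.271 in the first arc to 4.72 and 3.81 between π and 5π/4, and stands at 1.84 and 1.86 in the next arc.

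Pairs of members correlated across cells, which is a description since all pairs share each cell's position and depth. The median of the 28 Pearson correlations was 0.368 in culture 1 (range 0.259 to 0.545) and 0.268 in culture 2 (0.187 to 0.472). Within the G2/M arc the medians were 0.134 over 2056 cells and 0.0796 over 1666 cells. The highest pair within the arc was *Spc25* with *Bub3* in both cultures, at 0.330 and 0.288.

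Maxima were read from periodic loess lines. The median over the members of the position of the maximum was 1.12π, with 1.13π in culture 1 and 1.11π in culture 2. *Nuf2*, *Spc25*, *Bub1*, *Bub1b* and *Mad2l1* peaked between 1.115π and 1.145π in both cultures. *Ndc80* peaked at 1.115π and π, *Ttk* at 1.11π and 1.04π, and *Bub3* at 1.115π and 0.945π in cultures 1 and 2, so that their place among the members does not hold across the cultures. For comparison, the replication genes *Mcm6* and *Pcna* peaked at 0.72π and 0.76π in culture 1 and 0.645π and 0.70π in culture 2, *Top2a*, the topoisomerase of chromosome separation, at 1.02π and 0.945π, and the mitotic cyclin *Ccnb1* at 1.17π and 1.28π.

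The members also differed in where their lines rose. The line of *Bub1b* passed the middle of its range last among the 8 members, at 0.775π in culture 1 and at 0.745π in the other. It was also last in both cultures with loess spans of 0.1 and 0.5, a pseudocount of 0.1, the rebuilt angle and the window of depth. *Mad2l1* passed the middle of its range at 0.61π and 0.575π, first in culture 1 and second to *Bub3*, at 0.56π, in culture 2. With a loess span of 0.1, which follows the cells more closely, *Mad2l1* was first in both cultures at 0.65π and 0.58π, and *Bub1b* stood at 0.84π and 0.82π. Its early place depended on the setting in culture 2, where *Bub3* preceded it on the rebuilt angle (0.535π against 0.60π) and with a pseudocount of 0.1 (0.48π against 0.555π), and where with a span of 0.5 *Bub3*, *Ndc80* and *Ttk* all preceded it. In culture 1 at a span of 0.5 it tied with *Bub3* and *Ttk* at 0.52π. At a span of 0.1 *Mad2l1* also stayed above the middle of its range over the longest stretch of the circle, 0.875π and 0.99π, against 0.45π to 0.73π for the others. At a span of 0.5 this did not hold, since its stretch of 0.925π was the shortest of the 8 in culture 1, and its 0.97π in culture 2 lay below that of *Spc25*, *Nuf2*, *Bub1b* and *Bub1*.

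**Figure D4:**
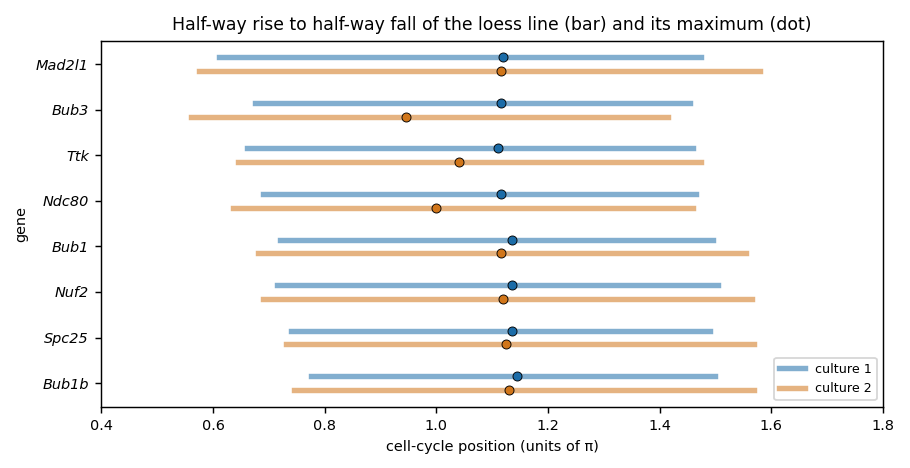
Stretch of the cell-cycle position (horizontal axis, units of π) over which the loess line of each member (span 0.3) lies above the middle of its range, drawn as a bar per culture with the maximum as a dot. Genes are ordered by the mean rise, from *Mad2l1* at 0.593π to *Bub1b* at 0.76π. At this span the maxima of *Ndc80*, *Ttk* and *Bub3* lie earlier in culture 2 than in culture 1, by gaps that depend on the setting. The right ends of the bars depend on the span and do not place the fall. For *Ndc80* they lie at 1.465π and 1.46π in cultures 1 and 2, and with a span of 0.1 at 1.235π and 1.28π. For *Ttk* they lie at 1.46π and 1.475π, and with a span of 0.1 at 1.285π and 1.28π. Only for *Mad2l1* in culture 1 did the smaller span move the end later, from 1.475π to 1.525π.

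The members differed in how much of their level was left after the maximum, a comparison chosen after the profiles had been seen. Mean values between 5π/4 and 3π/2, where 85 cells of culture 1 and 279 of culture 2 lie, were taken as a percentage of those between π and 5π/4. *Ndc80* stood at 9.49% and 17.0%, and *Ttk* at 6.08% and 19.4%. *Nuf2*, whose product pairs with that of *Ndc80*, stood at 36.4% and 48.9%. *Spc25* stood at 26.9% and 36.6%, *Bub1b* at 27.9% and 42.6%, *Bub1* at 44.1% and 50.2%, *Bub3* at 44.6% and 39.5%, and *Mad2l1* at 56.3% and 74.1%. *Ndc80* and *Ttk* were thus the lowest in both cultures and *Mad2l1* the highest. The 159 genes of the table that met the R² rule and had their highest arc between π and 5π/4 in both cultures had medians of 41.0% and 45.4%. Their choice by the arc that serves as the base lowers these percentages, and the members meet the same 2 conditions.

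*Ndc80* was detected in 5 of the 85 cells after 5π/4 in culture 1 (5.88%, 1.94% to 13.2%) and in 18 of 279 in culture 2 (6.45%, 3.87% to 10.0%). *Nuf2* was detected in 32 of 85 (37.6%, 27.4% to 48.8%) and 83 of 279 (29.7%, 24.4% to 35.5%). *Ttk* was detected in 2 of 85 and 16 of 279. In the arc before, *Ndc80* was detected in 57.3% and 37.4% of cells and *Nuf2* in 77.9% and 61.5%. Median depth was 14111 and 11882 UMIs after 5π/4 against 20527 and 17813 before it. Among cells of 12000 to 20000 UMIs it was 15101 and 13372 after 5π/4 against 16296 and 16558.5 before it. This window thus narrowed the gap in depth but did not close it. Over cells of 12000 to 20000 UMIs, *Ndc80* was found in 0 of 51 cells of culture 1, which allows a share of up to 5.88%, and stood at 10.4% of its earlier mean value in culture 2, while *Nuf2* stood at 41.3% and 45.1%. In the same cells *Ttk* stood at 9.78% and 15.3% and *Bub1b* at 18.6% and 22.6%, below its values over all cells. On the rebuilt angle *Ndc80* stood at 18.99% and 17.1%, *Ttk* at 24.4% and 20.1%, and *Nuf2* at 48.9% and 46.1%.

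**Figure D5:**
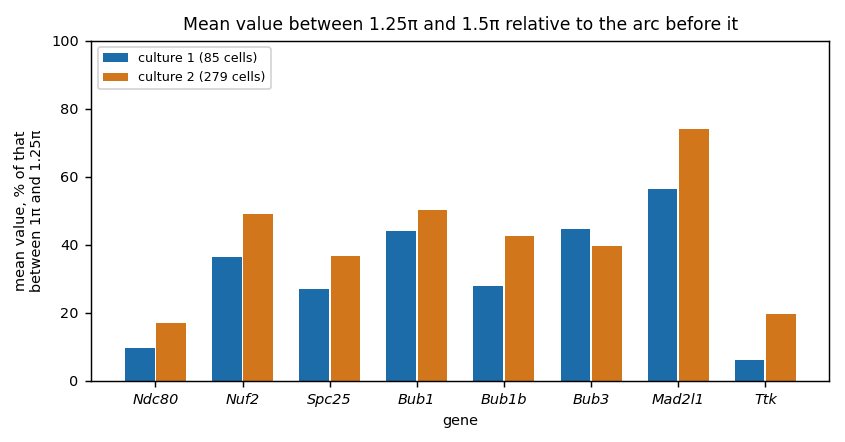
Mean value of each member between 5π/4 and 3π/2 as a percentage of its mean value between π and 5π/4 (vertical axis), with 1 bar per culture and the number of cells in the later arc in the legend. *Ndc80* and *Ttk* lie below 20% in both cultures and *Mad2l1* is the highest, at 56.3% and 74.1%.

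The stages that the authors deposited were read next. By cyclone, a stage caller trained on gene pairs, all 8 members were highest in G2M, as *Spc25* shows with 1.94 and 1.89 in G2M against 0.37 and 0.29 in G1 on the log2 scale. By the Seurat stages all 8 were again highest in G2M, and *Spc25* averaged 1.69 and 1.57 in G2M against 0.12 and 0.14 in G1. The cyclone gene list holds 8 members and the Seurat lists hold 4, so these stages are not independent of them. By SchwabeCC, which assigns 5 stages and leaves 2451 and 3151 cells without one, the contrast was smaller. It has no stage of G1 alone, so its G2.M stage is set against G1.S, unlike the contrasts above. *Spc25* averaged 0.82 and 0.84 in its G2.M stage against 0.50 and 0.33 in G1.S, and *Bub3* 1.52 and 1.19 against 1.55 and 1.35. The median difference over the members between these stages was 0.14. In the SchwabeCC S stage *Spc25* averaged 1.09 and 0.81, beside 0.98 and 0.92 in its G2 stage. Among the assigned SchwabeCC stages of culture 1, *Bub3* was highest in G2 and every other member in S, and none in G2.M. In culture 2 *Nuf2*, *Bub1*, *Bub1b* and *Mad2l1* were highest in G2.M. There *Ndc80*, *Spc25* and *Bub3* were highest in G2, and *Ttk* in S. The paper states that SchwabeCC places some G0/G1 cells in other stages. In its G2.M stage *Ndc80* was detected in 21.2% and 12.2% of cells, against 57.4% and 36.1% in the G2/M arc. The part of misplaced cells was not tested, and these stage maxima are not read as the timing of the genes.

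Of 20 other kinetochore and checkpoint genes listed for comparison, 17 have a row in the table and 13 met the R² rule, against 4.01% of all genes. *Cdc20*, the target of the checkpoint, had an R² of 0.693 and 0.673, and *Knl1*, the kinetochore scaffold that binds both the NDC80 complex and BUB proteins, 0.434 and 0.380. The 4 that did not meet it were *Zwint*, *Zw10*, *Kntc1* and *Mad1l1*, with lower R² values of 0.0103, 0.0120, 0.0479 and 0.0213. The median difference between the G2/M and G1 arcs over the 17 genes was 0.26. *Knl1* peaked at 1.12π and 1.10π, like the members, and *Cdc20* later, at 1.185π and 1.31π. After 5π/4 *Knl1* stood at 14.3% and 24.6% of its level in the arc before, and *Cdc20* at 57.2% and 90.8%.

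The 5 genes with profiles most like the mean of the NDC80 subunits, by Pearson correlation over 16 arcs among 420 genes that met the R² rule, were *Kif11* (0.990, the lower of both cultures), *Mki67* (0.988), *Kif4* (0.986), *Prc1* (0.985) and *Ncapg* (0.976). For the mean of the checkpoint genes they were *Prc1* (0.984), *Knl1* (0.983), *Cdk1* (0.983), *Kif4* (0.981) and *Ncapg* (0.976). *Prc1*, *Kif4* and *Ncapg* stand in both lists. These correlations are over arcs of the same cells and are given as a description.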

How the data were processed

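Single-cell RNA-seq of 2 replicate neurosphere cultures was used, with 12805 cells in all. Per the labels and the methods, alevin (Salmon 1.3.0) was run by the authors against GRCm38 to count spliced and unspliced molecules. The authors kept the spliced ones and removed cells far from the median in depth, genes, mitochondrial share or doublet score before deposit, so no doublet caller was run here. The kit is version 3 in the methods and version 2 in the labels. The expression values deposited by the authors are a signal normalized for depth on a linear scale. The total UMIs of each cell, a sum of estimated counts, were deposited by the authors, as were the angle and stages. Values are not whole reads, so no count model and no thinning were used. The depth window held cells of 12000 to 20000 UMIs and did not fully match depth between arcs.

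Ensembl IDs were matched to symbols for 10662 of the 10666 genes. Each gene was fitted with 2 harmonics of the angle in each culture, with a minimum R² of 0.05. Periodic loess (degree 2, span 0.3) was applied to 3 copies of the circle laid end to end and read at 401 positions. The methods give no span. The rebuilt angle used the Seurat (5.3.0) and cyclone (scran 1.30.0) lists. Analyses used R 4.3.3 and pandas 2.3.3, scipy 1.17.1 and numpy 2.4.6 in Python 3.11.15, and the fits were tested on simulated data. Named genes are the members, the listed kinetochore genes, the reference genes for order and the 5 genes most alike in profile. Among the listed reference genes *Plk1* was not analysed here. The members and lists were chosen with earlier results of these data known. Intervals are exact 95% binomial intervals (Clopper-Pearson) and, like the limit of 3 counts for a count of 0, cover counting error only.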

Additional observations from a re-analysis of the deposited data

How the results depend on the processing

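The number of members meeting the R² rule was 8 under every alternative except a filter on genes detected in at least 10% of cells, which removed *Ttk* and left 7. That filter left 8 of the other kinetochore and checkpoint genes in place of 13. The other alternatives gave 9 to 15 of these, and 13 without either culture. The median peak position moved from 1.12π to 1.07π with a loess span of 0.1 and to 1.03π with 0.5, and was 1.11π to 1.13π with 1 culture left out. The median difference between the arcs was 1.89 with a pseudocount of 0.1, 0.86 for the log2 of the mean value plus 1, 0.14 between the SchwabeCC stages G2.M and G1.S, and 0.70 to 0.79 with 1 culture left out. The only reversal was that of *Bub3* between the SchwabeCC stages, at -0.10, and its cause was not tested. Of 64 differences of single members under the alternatives 33 moved by less than the SD between cultures, and of 56 peak positions 37 did. Both totals include the values with 1 culture left out, which lie within that SD by construction. The totals therefore make the values look steadier than they are. No paired analysis was possible because there is 1 condition. The number of cultures limits every spread, and 85 and 279 cells limit the values after 5π/4.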
